A study of Arabidopsis thaliana with 2 samples.

Results

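The MYB genes listed as lower in *cep1* stems were *MYB118* (AT3G27785), *MYB90* (AT1G66390), *MYB48* (AT3G46130), *MYB59* (AT5G59780), *MYB3* (AT1G22640) and *MYB77* (AT3G50060). They were taken by gene name from the deposited stem table, and are 6 of its 733 genes. RefSeq gives a symbol of MYB and a number to 115 Arabidopsis genes, and these 6 were the only ones in the table. All 733 genes carry the authors' mark for down-regulation, so that each of the 6 was lower in *cep1* was fixed by the table and is not a result. The other MYB genes were not analysed here.

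The RNA came from mature main stems of 1 *cep1* mutant sample and 1 WT sample, without replicates. The *cep1* line carries a homozygous T-DNA insertion in the third exon of *CEP1*, which encodes a papain-like cysteine protease, and the WT was Columbia-0. It is a single insertion line, and no treatment is given for either genotype. By the sample labels, both stems were taken 25 d after flowering from plants grown at 20 °C with 16 h light and 8 h dark. The published account gives a slightly higher temperature and places both stems at the last stage of stem development, which *cep1* plants reached about a week later. Genotype, calendar age and the single sampling of each stem cannot be told apart in these data. In a bulk stem sample, fewer cells of a type and less RNA per cell cannot be told apart either.

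Recovered library totals were 22077141 reads for *cep1* and 20962056 for the WT. *CEP1* itself had 15 reads in *cep1* against 1269 in the WT. The xylem markers fixed for the tissue check (*XCP1*, *XCP2*, *MC9*, *IRX1*, *IRX3* and *IRX5*) were 0 of 6 in the table, so the tissue could not be checked with them. All 9 seed storage markers, the 12S cruciferin and 2S albumin genes of embryo and endosperm, were in it, with 0 reads in *cep1* against 1305 to 19882 in the WT. With 1 library per genotype the variation between plants is unknown, and no *p*-value is given. The 95% intervals cover counting error only, and copies of 1 molecule made by PCR cannot be told apart in them.

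R2R3 MYB proteins are one of the largest families of plant transcription factors. Their DNA-binding domain has a pair of imperfect repeats, R2 and R3, and the third helix of each repeat contacts DNA. The sequence beyond the repeats differs between subgroups and largely decides whether a member activates or represses. In stems the family is best known for members that switch on secondary wall and lignin genes, and other members control flavonoid pigments, hormone responses, root growth and seed development.

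The 6 genes are shown by the stretch of coding sequence for the end of the R3 repeat, since it gives the family and shows which members are close copies. Sequences were read from the TAIR10.1 genome with RefSeq coding sequences and run 5′ to 3′ on the coding strand. Capitals mark the codons for the motif by which each stretch was found (threonine, any residue, asparagine, any residue, isoleucine or valine, lysine, asparagine, any residue, tryptophan).
MYB118: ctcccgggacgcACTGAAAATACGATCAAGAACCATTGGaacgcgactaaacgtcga
MYB90: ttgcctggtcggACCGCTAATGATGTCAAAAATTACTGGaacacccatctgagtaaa
MYB48: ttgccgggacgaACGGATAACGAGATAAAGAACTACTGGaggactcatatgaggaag
MYB59: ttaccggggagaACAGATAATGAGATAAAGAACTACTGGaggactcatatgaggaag
MYB3: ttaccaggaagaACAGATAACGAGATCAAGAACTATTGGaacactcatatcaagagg
MYB77: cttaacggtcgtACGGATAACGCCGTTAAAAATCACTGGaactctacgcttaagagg

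In TAIR10.1 these stretches lie in the last coding exon of each gene. The *MYB118* stretch is on the reverse strand of chr3:10289217-10289273 (exon 4), that of *MYB90* on the forward strand of chr1:24764924-24764980 (exon 3) and that of *MYB48* on the forward strand of chr3:16945876-16945932 (exon 3). The *MYB59* stretch is on the reverse strand of chr5:24082803-24082859 (exon 3), that of *MYB3* on the forward strand of chr1:8006731-8006787 (exon 3) and that of *MYB77* on the reverse strand of chr3:18558737-18558793, in its single exon. The stretches of *MYB48* and *MYB59* were identical at 52 of 57 bases (91.2%), the highest of the 15 pairs. The next was *MYB59* with *MYB3*, at 47 of 57 bases (82.5%). Over the aligned coding sequences, gaps left out, *MYB48* and *MYB59* were 84.8% identical, against at most 69.9% for the other pairs. That 69.9% was for *MYB118* with *MYB59*, whose stretches were identical at only 32 of 57 bases (56.1%). With gaps left out, such a value does not by itself mark a close pair.

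How far reads could pass between near copies was therefore checked. The longest run that *MYB48* and *MYB59* share exactly in their mRNAs is 38 bases long and starts in the stretches above. Neither had a window of 50 bases in common with the RefSeq mRNA of any other gene, on either strand, nor had *MYB118*, *MYB3* or *MYB77*. *MYB90* lies in a cluster with its copies *MYB113* and *MYB114*. It shared a run of 77 bases with *MYB114*, and 38 of its 953 windows of 50 bases (3.99%) occurred in another gene. How many reads of *MYB90* fell there was not tested. No RefSeq gene overlapped any of the 6 genes on either strand.

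*MYB48* and *MYB59* were the most abundant of the 6 genes in both libraries. *MYB59*, a regulator of root growth and of potassium and nitrate transport, had 2818 reads in *cep1* against 14390 in the WT, which is 121 and 649 FPKM (reads corrected for the length of the gene and the size of the library). *MYB48*, its closest relative among the 6, had 1272 reads in *cep1* against 7539 in the WT, or 72.2 and 451 FPKM. Both were thus lower in the *cep1* library than in the WT library, and in *cep1* they still ranked 23 (*MYB59*) and 53 (*MYB48*) of the 733 genes by FPKM, above the median of 10.9 FPKM there. The log2 ratios of *cep1* to WT used here are those of the reads after division by the authors' factors, 20.3 for *cep1* and 22.8 for the WT, and ratios of FPKM differ from them by -0.24. They were -2.19 for *MYB59* (95% interval -2.25 to -2.13) and -2.40 for *MYB48* (-2.49 to -2.32). The ratio of *MYB48* was the lower, with a log2 difference of -0.21 (exact interval -0.32 to -0.11), which is larger than counting error. Together they made up 74.1% of the summed FPKM of the 6 genes in *cep1* and 83.6% in the WT.

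**Figure D1:**
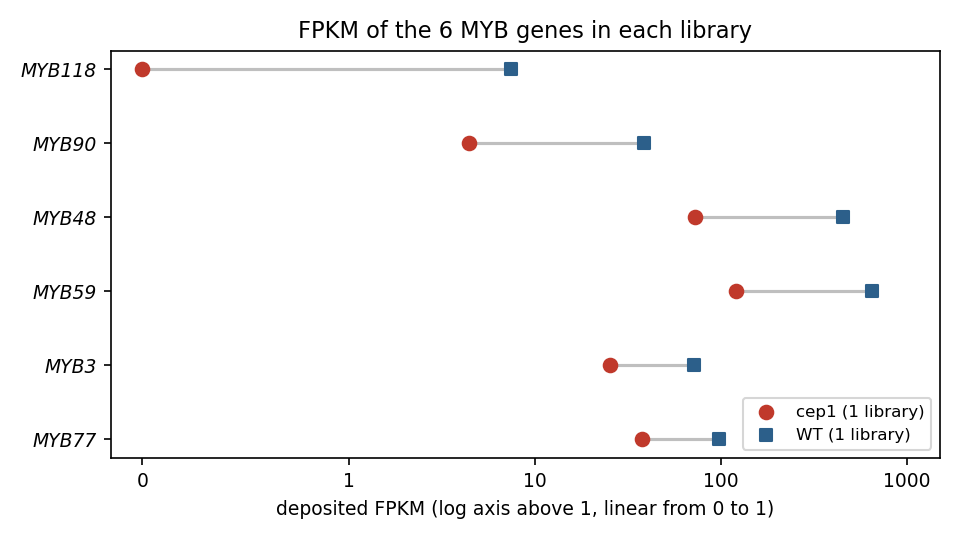
Deposited FPKM of the 6 MYB genes (x axis, logarithmic above 1 and linear from 0 to 1), with a circle for the *cep1* library and a square for the WT library. The WT value lies to the right for every gene, *MYB59* and *MYB48* are the highest in both libraries, and *MYB118* is listed at 0 in *cep1*.

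The levels of these close copies depend on the gene length used, and both genes have transcripts that differ in the first intron. The length listed in the table, 995 bases for *MYB48* and 1128 for *MYB59*, equals the deposited span without the introns of the RefSeq transcript that keeps the first intron. The deposited FPKM values correspond to shorter lengths, 798 bases for *MYB48* and 1058 for *MYB59*, the same in both libraries. None of the 4 RefSeq transcripts of *MYB48* or the 3 of *MYB59* had that many bases within the deposited span, and the reason was not tested. On the listed length, *MYB48* would have 57.9 FPKM in *cep1* against 361 in the WT, and *MYB59* 113 and 609. *MYB59* was 1.67 times as abundant as *MYB48* in *cep1* and 1.44 times in the WT by the deposited FPKM, and 1.95 and 1.68 times on the listed length. The order of the 2 genes and their ratios of *cep1* to WT do not depend on the length. The other 4 genes had an FPKM that fits their listed length, and 156 of all 733 genes (21.3%) had a WT FPKM over 1% larger than their listed length gives.

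*MYB90*, also known as PAP2, switches on anthocyanin pigment genes together with bHLH proteins such as TT8 and the WD40 protein TTG1. It had 96 reads in *cep1* against 794 in the WT, or 4.41 and 38.4 FPKM. Its log2 ratio was -2.88 (-3.21 to -2.58), the lowest of the 5 members with reads in *cep1*, and by these scaled reads the *cep1* level was 13.5% of the WT level. With the fewest reads of these 5 genes it also had the widest interval. Its log2 difference was -0.48 from *MYB48* (-0.81 to -0.16) and -0.70 from *MYB59* (-1.02 to -0.38).

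*MYB118* acts in the endosperm, where it holds back the seed maturation programme. It had 0 reads in *cep1* against 266 in the WT (7.46 FPKM), and was the least abundant member in both libraries. Set against 3 reads, which leaves out the counting error of the WT reads, it was at least 79.1-fold lower in *cep1*. The exact two-sided 95% interval, used for the other members, is wider and sets the limit at 63.9-fold, a log2 ratio of -6.00. With 0 counted, up to 3 reads remain possible (1.36e-05% of the *cep1* library), so *MYB118* was not detectable in *cep1* at this depth. It is one of 61 genes of the table with 0 reads in *cep1*. Of the seed maturation regulators it is usually named with, *ABI3* had 0 reads in *cep1* against 352 in the WT, *WRI1* had 111 and 705, and *LEC1*, *LEC2*, *FUS3* and *MYB115* were not in the table. The 9 seed storage markers, with 0 reads in *cep1* and 78936 reads in the WT in sum, had the same pattern of presence in the WT library alone. Their part in the value of *MYB118* was not tested.

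*MYB3* and *MYB77* had the log2 ratios nearest to 0. *MYB3*, a repressor of phenylpropanoid genes, had 601 reads in *cep1* against 1626 in the WT, or 25.3 and 72.0 FPKM. Its log2 ratio was -1.27 (-1.41 to -1.14), and the scaled reads in *cep1* were 41.4% of those in the WT. *MYB77*, which takes part in auxin responses and lateral root growth, had 943 reads in *cep1* against 2324 in the WT, or 37.6 and 97.5 FPKM. Its scaled reads in *cep1* were 45.5% of those in the WT, with a log2 ratio of -1.14 (-1.25 to -1.03) whose upper limit lay just past the threshold of -1 used in the study. The ratios of the 2 genes could not be distinguished by counting error, with a difference of -0.13 and an interval from -0.31 to 0.04.

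**Figure D2:**
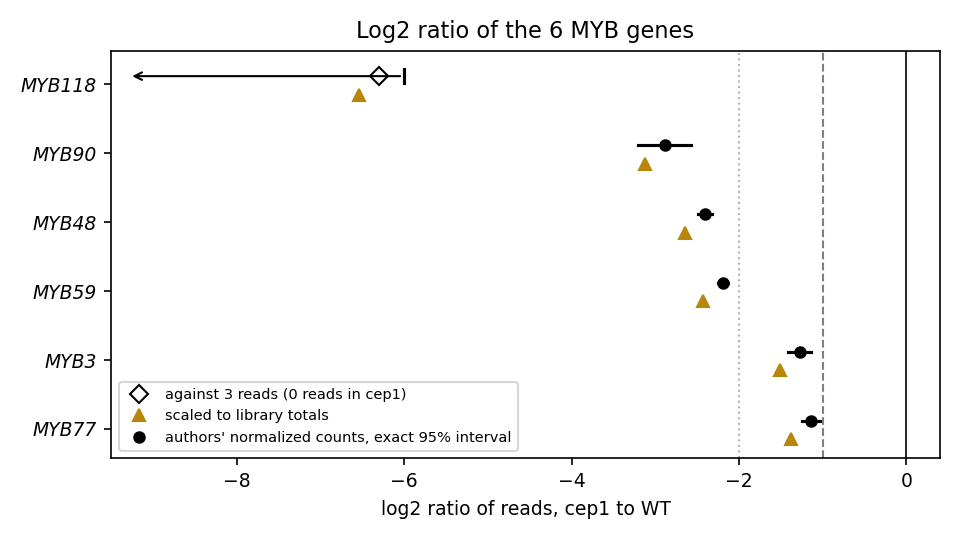
Log2 ratio of reads of *cep1* to WT for the 6 MYB genes (x axis). Black circles and bars give the ratio from the authors' normalized counts with its exact 95% interval, the open diamond the bound of *MYB118* against 3 reads, with its upper limit and an arrow towards lower values, and triangles the ratio (for *MYB118* the bound) scaled to library totals. Dashed and dotted lines mark -1 and -2, and every triangle lies to the left of the other symbol of its gene.

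By counting error alone, most of the members could be told apart in their log2 ratios. Of the 15 pairs of members, the exact interval of the difference between log2 ratios lay apart from 0 for 14, *MYB3* and *MYB77* being the exception. That share was not computed for pairs of the other listed genes, so it marks nothing particular to these 6. The difference between genes does not depend on how the libraries are scaled. *MYB59* lay below *MYB3*, with a log2 difference of -0.92 (-1.06 to -0.77), and below *MYB77*, with -1.05 (-1.18 to -0.93). The upper limits of the differences of *MYB118* from the other 5 lay between -4.86 and -3.08. In level, the order by FPKM was *MYB59*, *MYB48*, *MYB77*, *MYB3*, *MYB90* and *MYB118* in both libraries. The lead of *MYB3* over *MYB90* was 5.73-fold in *cep1* and 1.87-fold in the WT, and that of *MYB77* over *MYB3* 1.49-fold and 1.35-fold. Whether neighbours in this order differ beyond the spread between plants cannot be told from 1 library each.

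**Figure D3:**
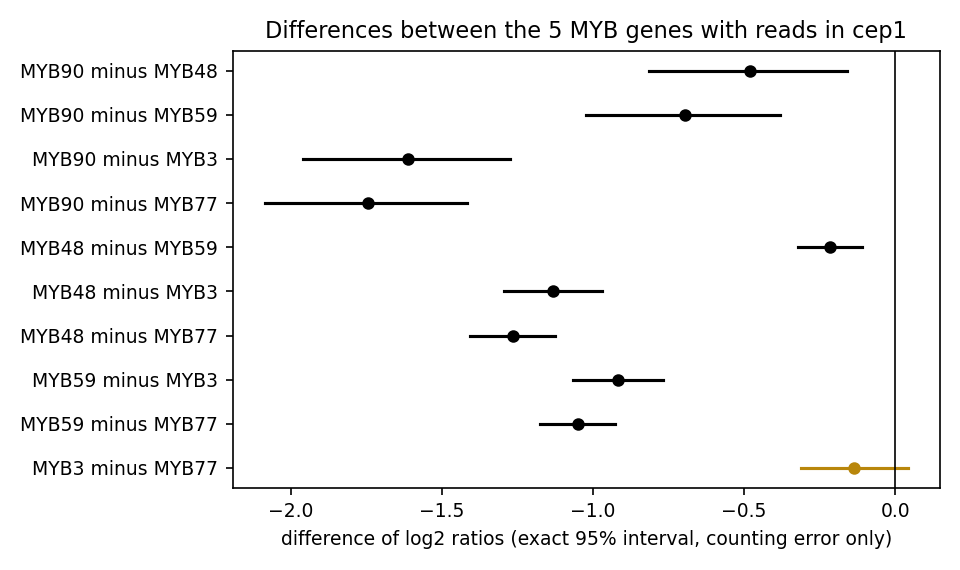
Difference between the log2 ratios of 2 MYB genes (x axis, first gene minus second) for the 10 pairs of the 5 members with reads in *cep1*, with exact 95% intervals for counting error. The interval of *MYB3* minus *MYB77* holds 0 and the other 9 lie below it.

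All 6 genes reached a log2 ratio of -1, as did 100% of the 733 genes, which only restates how the table was made. A log2 ratio of -2 or below, a 4-fold difference, was found for 4 of the 6 (*MYB118*, *MYB90*, *MYB48* and *MYB59*) and for 343 of the 733 genes (46.8%). With only 6 genes, that share is near the background. With genes without reads in *cep1* set at 3 reads, the median log2 ratio was -2.30 for the 6 genes and -1.86 for all 733. The median WT level was 84.8 FPKM for the 6 and 49.4 FPKM for all 733. The deposited annotation gives transcription factor activity to 69 genes, among them all members but *MYB118*. Of these 69 genes, *MYB59* and *MYB48* had the highest WT levels after the ethylene response factor gene *RAP2-3* (191 FPKM in *cep1* against 730 in the WT). Among the 64 that are not members, 29 (45.3%) reached a log2 ratio of -2, and the median was -1.89.

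**Figure D4:**
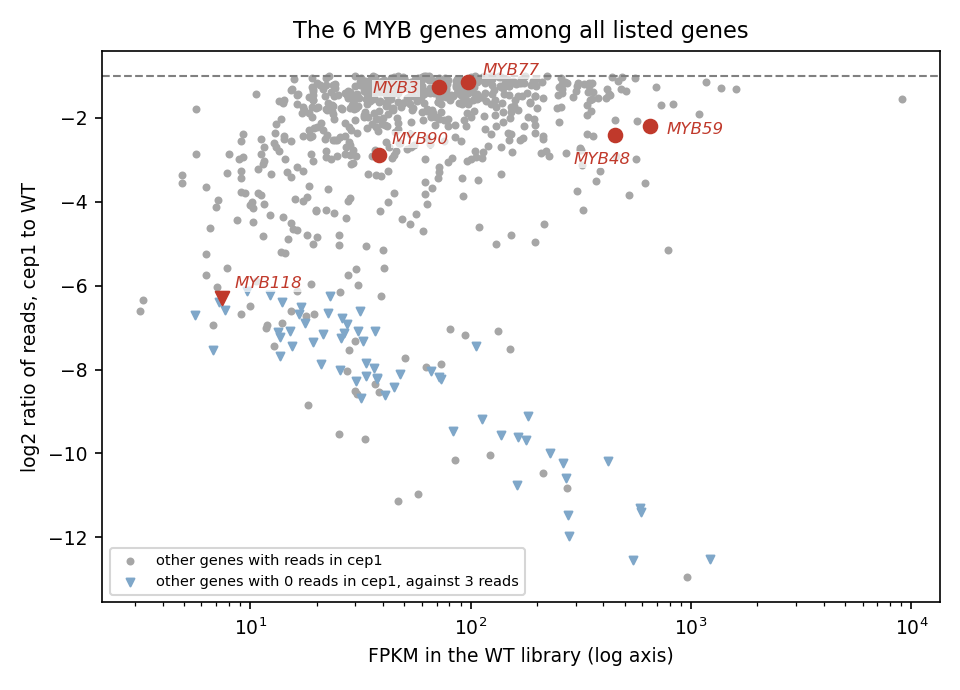
Log2 ratio of *cep1* to WT (y axis) against WT FPKM (x axis, logarithmic) for the 733 listed genes. Large red symbols are the 6 MYB genes, grey points other genes with reads in *cep1* and blue triangles other genes with 0 reads in *cep1*, placed at their bound against 3 reads. *MYB59* and *MYB48* lie towards the high end of WT FPKM, and *MYB118* lies at the low end among the genes without reads in *cep1*.

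What the members share beyond the MYB name was read from the deposited gene ontology terms. All 6 carried the term for DNA-templated transcription, as did 98 of the 733 genes. The term response to salicylic acid was given to *MYB48*, *MYB59*, *MYB3* and *MYB77*, and to 13 genes (1.77%) in the whole table, so that these MYB genes were 4 of the 13. Response to ethylene and response to chitin were each shared by *MYB59* and *MYB77*, out of 18 and 4 listed genes. Of these 6 MYB genes *MYB118* alone carried endosperm and seed maturation terms, and *MYB77* alone the term lateral root development. The terms describe the annotation of the genes and not their behaviour in these stems.

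The genes that each member is known to work with were looked up in the same table. Around *MYB90*, 1 of 7 partner and sister genes was listed, the bHLH gene *TT8*, with 72 reads in *cep1* against 491 in the WT and a log2 ratio of -2.61 (-2.98 to -2.25). *GL3*, *EGL3*, *TTG1* and the sister genes *MYB75*, *MYB113* and *MYB114* were not in it. Of 11 anthocyanin pathway genes, 4 were listed. These were *CHI*, chalcone isomerase (126 reads in *cep1* against 585 in the WT, log2 ratio -2.05), *TT19*, the glutathione transferase that carries pigment to the vacuole (574 and 1836, -1.51), *DFR*, dihydroflavonol reductase (1378 and 4263, -1.47), and *CHS*, chalcone synthase (2384 and 6082, -1.19). *CHI* alone of the 4 reached a log2 ratio of -2, so the pathway genes in the table were lower by less than *MYB90*, and the median of the 4 was -1.49 against -1.86 for all listed genes. *TT8* also acts in the seed coat, where it controls tannin pigments, and seed storage transcripts were present in the WT library alone. Their part in these values was not tested. For scale, the table lists 733 genes, while 27443 protein-coding genes have a promoter window in TAIR10.1. Both lists around *MYB90* were written with earlier results of these data known, so the counts of listed genes are not read as a result.

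**Figure D5:**
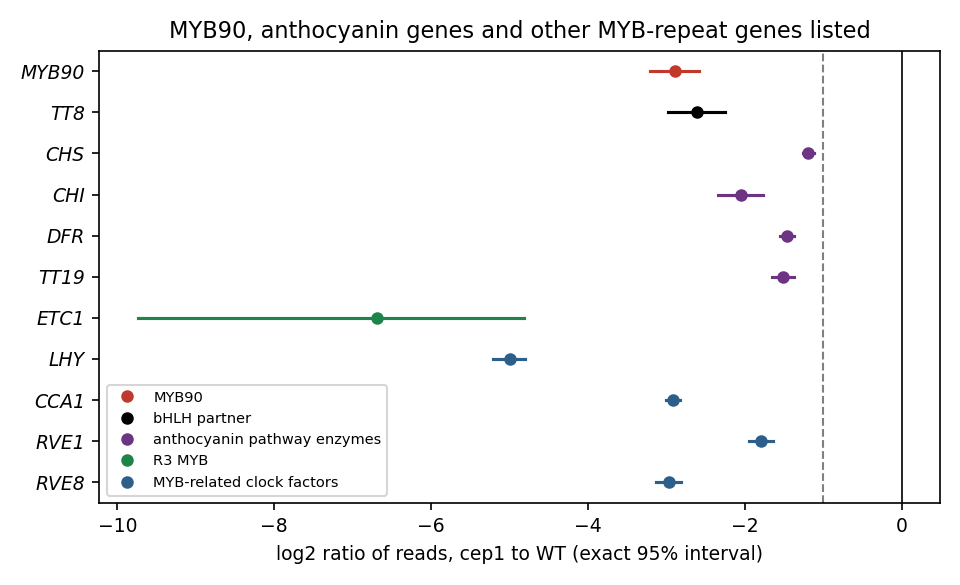
Log2 ratio of *cep1* to WT with exact 95% intervals (x axis) for *MYB90*, for its bHLH partner *TT8* and the 4 listed anthocyanin pathway genes, and for the listed genes of other MYB-repeat classes. *TT8* overlaps *MYB90*, *CHS* lies closest to the dashed line at -1, and *ETC1*, with 2 reads in *cep1*, has the widest interval.

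Around the other members the table held few or no genes. None of the 15 general phenylpropanoid and lignin genes, the pathway that *MYB3* represses, was listed, nor any of the 11 auxin response genes or the 3 close relatives of *MYB77* (*MYB44*, *MYB70* and *MYB73*). The same held for 4 potassium and nitrate transport genes looked up for *MYB59*, and for 13 MYB genes of secondary wall control such as *MYB46* and *MYB63*. The table lists 733 genes, all marked as down-regulated, while 27443 protein-coding genes have a promoter window in TAIR10.1. Why the genes of these lists are not in it was not tested. The levels of these unlisted genes were not analysed here, and no direction is read from their absence.

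Genes for proteins with a single MYB repeat or a related repeat were looked up as well. Of 8 MYB-related clock factors, 4 were in the table. *LHY* had 205 reads in *cep1* against 7338 in the WT (log2 ratio with an interval from -5.21 to -4.80), *RVE8* 341 and 2992 (-2.97), *CCA1* 1162 and 9846 (-2.92) and *RVE1* 439 and 1700 (-1.79). Of the 7 small R3 MYB repressors, which compete with R2R3 MYB proteins for bHLH partners, *ETC1* was listed, with 2 reads in *cep1* against 231 in the WT. Beside these counts stand the same 733 listed genes and 27443 protein-coding genes. These lists too were written with earlier results of these data known, so the counts of listed genes are not read as a result. The interval of *CCA1* (-3.01 to -2.83) lay within that of *MYB90*, while *LHY* and *ETC1* lay below every R2R3 member with reads in *cep1*. The sample details used here give no hour of harvest for either stem. Its part in the values of the clock factors was not tested and cannot be told apart from genotype.

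Each member was finally set beside the named gene of the table whose FPKM values in the 2 libraries were nearest to its own, by the distance on the log2 scale. *MYB3* was nearest to *THA2*, a threonine aldolase gene (25.4 FPKM in *cep1* against 72.4 in the WT, distance 0.012), and *MYB77* to *AKR4C8*, an aldo-keto reductase gene (38.3 and 98.7, distance 0.033). *MYB59* was nearest to *PXG3*, a peroxygenase gene (115 and 568, distance 0.21), *MYB90* to *AAO4* (3.70 and 42.1, distance 0.29) and *MYB48* to the boron channel gene *NIP5-1* (60.6 and 561, distance 0.40). For *MYB118* the comparison was made over genes with 0 reads in *cep1*, by WT FPKM alone, and gave *HSD6* (0 in *cep1* against 9.64 in the WT, distance 0.37). The distances followed no order of abundance, and each rests on 2 libraries only.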

How the data were processed

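Stem RNA of 1 *cep1* and 1 WT sample was compared. Per the labels and methods, the authors used TopHat 2.0.12, with Bowtie2 2.2.3 and HTSeq 0.6.1 also named; the genome build was not given in the sources used here. Deposited values are raw read counts for each gene, FPKM values, and the authors' normalized read counts, a signal equal to the raw count divided by 20.3 (*cep1*) or 22.8 (WT). The deposited log2 ratios and p-values are the authors' DEGseq comparison and were not used. Log2 ratios were recomputed here from raw counts and these factors, with exact Clopper-Pearson 95% intervals. A count of 0 was set against 3 reads. Library totals, 22077141 (*cep1*) and 20962056 (WT), were recovered from count, length and FPKM. Differences between genes are conditional odds ratios with exact intervals. No count model could be fitted with 1 library per genotype. The intervals were tested on simulated data for the comparison of *cep1* with WT, with read sampling as the only noise, and held the true ratio for 95.9% of 733 genes. Members matched RefSeq of TAIR10.1 by identifier (6 of 6), and each listed length equals the deposited span less the introns of 1 RefSeq transcript. Members, gene lists and motifs were chosen with earlier results of these data known. The named genes are the members, list genes in the table and the nearest gene to each member; *RAP2-3* was chosen after its values were seen. Python 3.11.15, numpy 2.4.6, pandas 2.3.3, scipy 1.17.1 and matplotlib 3.10.9 were used.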

Additional observations from a re-analysis of the deposited data

How the results depend on the processing

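All 6 genes remained lower in *cep1* under every scaling, pseudocount and count offset tried. A log2 ratio of -1 or below was met by 6 of 6, also by the upper limit of the interval. In the main setting 100% of the 733 listed genes met it, so that count restates how the table was made. The share of all listed genes at -1 by the upper limit was not computed. Scaled to library totals, every log2 ratio shifted by -0.24, giving -2.64 for *MYB48*, -2.43 for *MYB59*, -1.51 for *MYB3* and -1.38 for *MYB77*. These values lie outside the counting intervals, and the ratios of the deposited FPKM are the same. With 0.1 added to each FPKM the values were -2.64, -2.43, -1.51 and -1.37 for these genes in that order, and with 1 added they were -2.63, -2.42, -1.47 and -1.35. The value of *MYB118* with 1 added to each FPKM was -3.08, because the added 1 is large beside 7.46 FPKM. The values of *MYB90* stayed within its interval. At a log2 ratio of -2 or below, 4 of 6 genes were counted with library totals, with 1 added to each FPKM and by the upper limit of the interval, against 53.8%, 50.1% and 42.6% of all listed genes. With at least 20 reads required in both libraries, *MYB118* dropped out, as it had no read in *cep1*. Of the members left, 3 were counted (*MYB90*, *MYB48* and *MYB59*) and *MYB3* and *MYB77* were not, against 34.8% of the 598 genes left. The depth limits *MYB118* and *MYB90* most. No replicate could be left out, and the spread between plants is not known.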

Other observations

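The promoter windows of the 6 genes, from 250 bases before to 50 bases after the RefSeq gene start in TAIR10.1, were searched on both strands for the evening element (AAATATCT), the CCA1-binding site (AAAAATCT) and the G-box (CACGTG). The clock motifs were included because *LHY*, *CCA1* and *RVE8* are in the table. Neither clock motif occurred in these letters in any of the 6 windows, and they occur in 5.65% and 7.88% of the 27443 promoters of protein-coding genes. A G-box, a motif bound by bHLH and bZIP factors, occurred in the window of *MYB90* alone, and in 7.68% of all promoters. It is shown with the bases around it, with the motif in capitals, on the forward strand of chr1:24763875-24763920.
MYB90 promoter: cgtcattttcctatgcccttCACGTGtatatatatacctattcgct

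A match describes the letters and not a site in use, and a missing match says only that these letters are not in this window.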
